A study of Mus musculus with 6 samples.

Results

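The genes described here are 8 early-response genes that T cells switch on when their antigen receptor is engaged: Nr4a1, Nr4a2, Nr4a3, Egr1, Egr2, Egr3, Nab2 and Ier2. They were chosen by name, and all 8 were found among the 48709 genes of the deposited table. The RNA came from iNKT cells (invariant natural killer T cells, which recognise lipids on CD1d) that were flow sorted from mouse spleen in the resting state. The labels describe 6 samples, 3 named Gpx4 cKO, from mice with a conditional knockout of the lipid peroxidase gene Gpx4, and 3 named WT. The sources used here give neither the Cre line nor the age of the mice, nor whether each sample was a separate animal. The table holds 6 libraries, numbered 18 to 23, and 0 of them could be matched to a label by name. No library is therefore given a genotype, and no Gpx4 cKO against WT comparison was made. Values are given library by library.

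The NR4A proteins Nr4a1 (Nur77), Nr4a2 (Nurr1) and Nr4a3 (Nor1) are orphan nuclear receptors that work as transcription factors without a known physiological ligand. Egr1, Egr2 and Egr3 are zinc-finger transcription factors induced through the ERK kinases, serum response factor and, for Egr2 and Egr3, calcium and NFAT. Nab2 is a corepressor that binds EGR proteins and is itself an EGR target, and Ier2 is a small early-response nuclear protein. In T cells, Nr4a1 is widely used as a reporter of antigen receptor signal strength, and mouse iNKT cells need Egr2 to develop and to switch on Zbtb16, their lineage factor. The same genes also respond to stress and to growth factors in many cell types.

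Promoter sequence is shown for 4 of the genes because it shows elements through which receptor signals are known to reach such genes. Sequences are from RefSeq (GRCm38.p6) and were cut to the part upstream of the start site and outside exons of the GENCODE M21 annotation. For a gene with several start sites, the stretch with the most matches is shown. In the 3 NR4A sequences capitals mark TGACG on either strand (CGTCA when read on the other), the half-site of the cyclic AMP response element. In the Egr2 sequence they mark a CArG box, the element bound by serum response factor.
Nr4a1: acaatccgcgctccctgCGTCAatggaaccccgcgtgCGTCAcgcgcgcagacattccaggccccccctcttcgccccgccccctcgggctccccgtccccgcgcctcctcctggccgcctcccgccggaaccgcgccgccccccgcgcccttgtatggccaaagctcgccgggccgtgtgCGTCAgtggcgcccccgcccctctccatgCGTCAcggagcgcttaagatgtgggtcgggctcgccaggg
Nr4a2: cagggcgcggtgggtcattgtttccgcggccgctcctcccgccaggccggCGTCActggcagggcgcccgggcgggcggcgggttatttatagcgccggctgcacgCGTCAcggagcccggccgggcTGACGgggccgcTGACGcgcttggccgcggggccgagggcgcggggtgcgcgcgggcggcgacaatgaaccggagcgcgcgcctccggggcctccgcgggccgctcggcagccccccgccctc
Nr4a3: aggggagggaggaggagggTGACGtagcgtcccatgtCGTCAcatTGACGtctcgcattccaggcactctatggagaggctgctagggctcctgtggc
Egr2: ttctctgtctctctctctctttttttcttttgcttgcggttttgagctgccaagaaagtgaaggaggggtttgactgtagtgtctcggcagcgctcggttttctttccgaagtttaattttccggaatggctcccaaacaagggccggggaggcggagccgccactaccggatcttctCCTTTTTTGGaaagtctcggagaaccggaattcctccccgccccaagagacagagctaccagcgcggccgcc
These windows lie at chr15:101266596-101266845 (plus strand), chr2:57124004-57124253 (minus strand), chr4:48045055-48045152 (plus strand) and chr10:67537316-67537565 (plus strand). The Egr2 stretch lies inside the gene, upstream of a later start site. The Nr4a1 stretch adjoins the start of the gene in the deposited table, but GENCODE M21 begins Nr4a1 further upstream, at 101254269. In that annotation the stretch lies inside the gene. The Egr2 window at the beginning of the gene, chr10:67535249-67535498, held 0 half-sites and 0 CArG boxes. The full window of 250 bases upstream of the start held 4 TGACG half-sites in each of Nr4a1, Nr4a2 and Nr4a3, of which 3 fall in the stretch shown for Nr4a3. Of 32851 such windows over all RefSeq start sites, 17.8% held at least 1 half-site and 0.137% held 4 or more. Of the 5 Egr2 windows, 3 held 2 half-sites each and the one shown held none. Those 3 windows overlap over most of their length, so they are not separate stretches. The complete element TGACGTCA was in none of the 3 NR4A windows and in 1.55% of all windows. The EGR motif GCGNGGGCG was found once in the windows of Nr4a1 and Nr4a2, not in that of Nr4a3 or Nab2, and in 4.70% of all windows. A CArG box was present in 4 of the 5 Egr2 windows, namely the one shown and the 3 overlapping ones. None of the NR4A windows held one, and 1.47% of all windows did. The NR4A monomer site AAAGGTCA was in no window of these 5 genes (Nr4a1, Nr4a2, Nr4a3, Egr2 and Nab2) and in 1.34% of all. Windows of Egr1, Egr3 and Ier2 are not reported here. Both strands were searched, and a match of letters is not a bound site.

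The libraries differed 11.2-fold in depth, from 903524 exon reads in library 21 to 10122187 in library 19, so a count of 0 (limit of 3 reads) allowed up to 0.282 CPM in library 19 and up to 3.62 in library 21. CPM is the count of exon reads scaled to a library of 1000000 reads after correction for composition. Transcripts of iNKT and other T cells were abundant throughout, with a summed level of 4521 to 5992 CPM over 12 markers. Gpx4 itself had 30.1, 3.20, 31.3, 14.5, 29.0 and 11.1 CPM in libraries 18 to 23. Libraries 18, 20 and 22 were highest, with overlapping Poisson intervals, and library 19 was lowest. Libraries 21 and 23, with only 12 and 21 exon reads, lay between. The interval of library 21 reached up to 25.3 CPM, above the lower bound of library 22 (24.6 CPM). No library was given a genotype from these levels. Of the markers of other cells, B cell transcripts were plentiful, with a sum of 1072 to 5343 CPM over 16 markers, most of it Igkc and Ighm. The sums of 9 myeloid markers (at most 9.65 CPM), 5 NK cell markers (at most 13.3 CPM) and 2 CD8 T cell markers (at most 2.95 CPM) were low. For every gene with at least 200 reads, a chi-square test with Benjamini-Hochberg adjustment asked whether its counts were spread over the libraries more widely than counting error allows. By this test 71.6% of the 9042 genes tested varied, which is the background for every count below. With no minimum it was 53.9% of 22065 genes, beside 8 of 8 members. In bulk RNA, fewer cells of a type and less RNA per cell cannot be told apart. Reads are not independent molecules, so all intervals and tests cover counting error only.

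Per kilobase of exon, Ier2 was by far the most abundant of the 8 genes, and Egr3, Egr2 and Nr4a2 were the scarcest. The authors' RPKM, which divides reads by exon length and depth, had a median over libraries of 43.8 for Ier2, 8.30 for Egr1, 7.63 for Nr4a1, 6.68 for Nr4a3 and 5.49 for Nab2. It was 1.67 for Egr3, 0.838 for Egr2 and 0.478 for Nr4a2. Ier2 lay above Egr1 in 6 of 6 libraries, Nr4a3 above Nab2 in 6 of 6, and Nab2 above Egr3 in 6 of 6. The order of the others was not fixed: Egr1 exceeded Nr4a1 in 4 libraries, Nr4a1 exceeded Nr4a3 in 3, Egr3 exceeded Egr2 in 5 and Egr2 exceeded Nr4a2 in 4. The table's model of Egr3 covers 1416 bases of exon, against 4406 in GENCODE M21, so reads on the rest of that gene were not counted for it. The model of Nr4a1 covers 2474 bases against 3509, and the other 6 models have the same exon length in both.

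**Figure D1:**
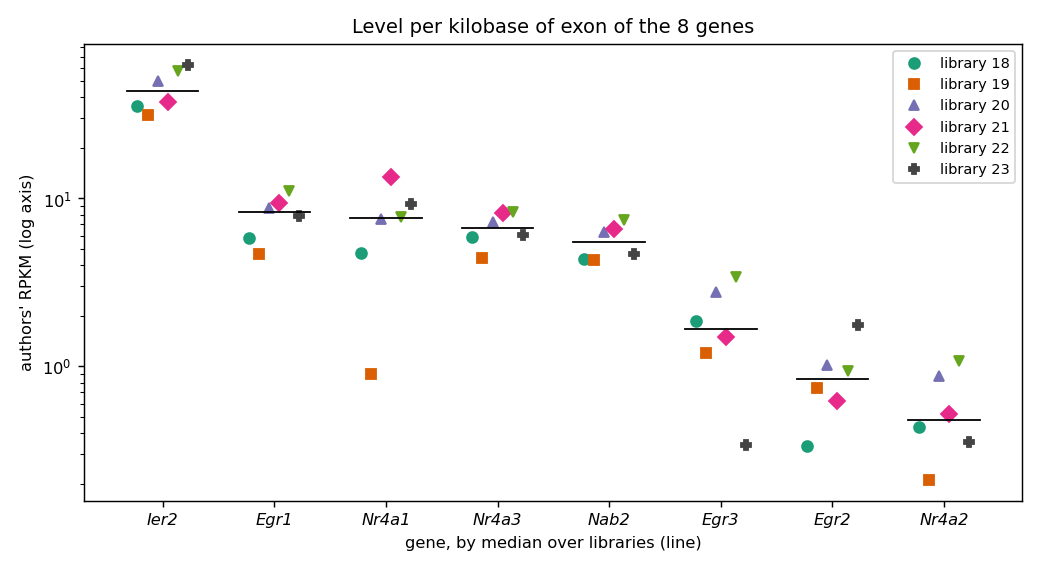
The authors' RPKM (log axis) of the 8 genes, ordered by their median over libraries (black line), with a symbol for each library. Ier2 lies highest in each library with a median of 43.8, and the Nr4a1 value of library 19, 0.903, lies far under those of the other 5 libraries.

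All 5 of the members with enough reads for the test, namely Nr4a1, Nr4a3, Egr1, Nab2 and Ier2, varied between libraries beyond counting error, and each was lowest in library 19 and second lowest in library 18. The background of 71.6% leaves little to read from this count. The median log2 range over libraries was 1.15 for these 5 genes and 0.65 for all tested genes. Nr4a1 was the most variable of the 8, with a log2 range of 3.99, and 139 of the tested genes (1.54%) had a wider one. Of all 8 genes, 6 were lowest in library 19, where 14.0% of the tested genes had their lowest level.

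**Figure D2:**
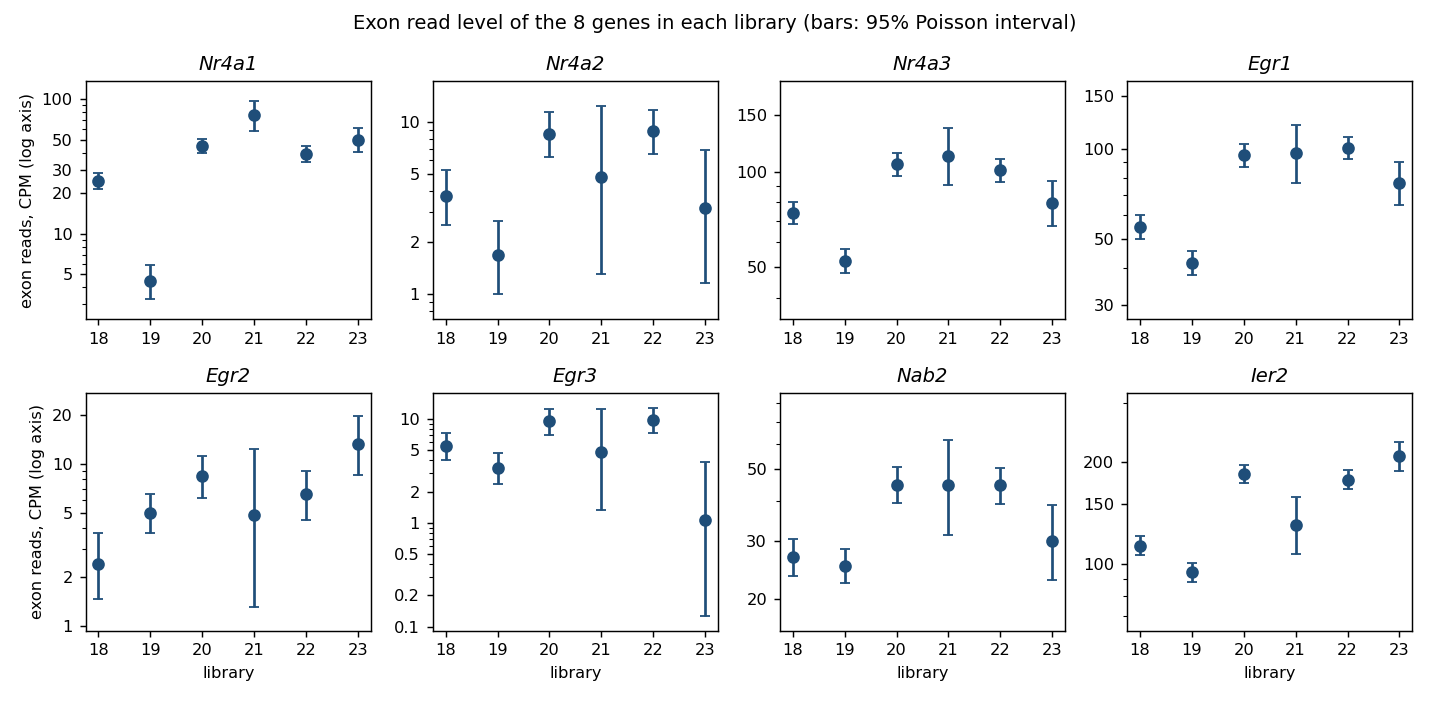
Exon reads in CPM (log axis, with its own range in each panel) of the 8 genes in libraries 18 to 23, with 95% exact Poisson intervals. Nr4a1 is at 4.43 CPM (library 19) and 76.0 CPM (library 21) at its extremes, a far wider gap than for Nr4a3, Egr1, Nab2 or Ier2.

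Nr4a1 (ENSMUSG00000023034, chromosome 15, 101266846 to 101274792, plus strand) had 24.7, 4.43, 44.9, 76.0, 38.9 and 50.1 CPM in libraries 18 to 23. The exact Poisson interval of library 19, 3.25 to 5.88 CPM from 47 reads, lay apart from that of each other library, the nearest being library 18 with 21.4 to 28.3 CPM from 205 reads. The highest level was 17.2 times the lowest (95% interval 11.6 to 25.6, adjusted p = 1.75e-85, chi-square test). This ratio rests mostly on library 19: without it the highest was 3.07 times the lowest, and without library 21 it was 11.3 times. By the authors' RPKM the ratio was 14.9.

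Nr4a3 (ENSMUSG00000028341, chromosome 4, 48045153 to 48086447, plus strand) supplied the most reads of the family and varied far less. It had 74.2, 52.3, 105, 112, 101 and 79.6 CPM in libraries 18 to 23. The highest level was 2.14 times the lowest (interval 1.70 to 2.67, adjusted p = 1.39e-38, chi-square test). Libraries 20, 21 and 22 lay together with overlapping intervals, and library 19 lay under all others.

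Nr4a2 (ENSMUSG00000026826, chromosome 2, 57106830 to 57124003, minus strand) was read only 4 to 48 times per library. Its levels were 3.73, 1.69, 8.55, 4.83, 8.86 and 3.16 CPM in libraries 18 to 23. Libraries 20 and 22 were highest, and their intervals lay above that of library 19. With 154 reads in all it stayed under the minimum for the test, and with no minimum it also varied (adjusted p = 1.45e-10, chi-square test).

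The make-up of the NR4A family, a measure that needs no scaling for depth, was set apart in library 19, whose interval for Nr4a1 lay under those of the other 5. Nr4a1 held 24.1% of the family's exon reads in library 18 (95% Wilson interval 21.3% to 27.0%), 7.57% in library 19 (5.74% to 9.92%) and 28.3% in library 20 (25.4% to 31.3%). It held 39.4% in library 21 (32.1% to 47.1%), 26.2% in library 22 (23.3% to 29.3%) and 37.7% in library 23 (31.9% to 43.8%). Nr4a3 was the larger part in every library, with 58.1% to 89.5%, and Nr4a2 held 2.38% to 5.96%. Per kilobase of exon, Nr4a1 held 16.3% of the family's RPKM in library 19 and 42.8% to 60.7% in the other 5.

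Egr1 (ENSMUSG00000038418), the most abundant EGR gene, followed Nr4a3 closely in its pattern. It had 54.7, 41.5, 95.1, 96.5, 101 and 77.0 CPM in libraries 18 to 23. The highest level was 2.43 times the lowest (interval 2.14 to 2.76, adjusted p = 1.67e-59, chi-square test). Libraries 18 and 19 lay apart from the other 4, whose intervals reached down to 65.0 CPM against upper bounds of 60.0 and 45.6 CPM.

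Egr2 (ENSMUSG00000037868, chromosome 10, 67535475 to 67542188, plus strand), the EGR factor needed for iNKT development, was scarce and had a different order of libraries. It had 20, 53, 46, 4, 35 and 25 exon reads in libraries 18 to 23, or 2.41, 4.99, 8.36, 4.83, 6.46 and 13.2 CPM. Library 18 was lowest and library 23 highest, and library 19 was not low. The ratio of highest to lowest was 5.47 (interval 2.92 to 10.4), and it was 2.72 without library 18 and 3.46 without library 23. With 183 reads it was not tested at the chosen minimum, and with no minimum it varied (adjusted p = 2.30e-07, chi-square test).

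Egr3 (ENSMUSG00000033730, chromosome 14, 70077445 to 70080157, plus strand), which overlaps with Egr2 in function, was highest in libraries 20 and 22 and lowest in library 23, the reverse of Egr2 there. It had 46, 36, 52, 4, 53 and 2 exon reads in libraries 18 to 23, or 5.54, 3.39, 9.45, 4.83, 9.78 and 1.05 CPM. In library 23 the share of EGR exon reads was 1.16% for Egr3 (Wilson interval 0.318% to 4.12%) and 14.5% for Egr2 (9.98% to 20.5%). In library 18 it was 8.85% for Egr3 and 3.85% for Egr2. The ratio of highest to lowest Egr3 level, 9.28, has an interval of 2.45 to 78.6 because library 23 held 2 reads. Without library 23 the ratio was 2.88.

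Nab2 (ENSMUSG00000025402, chromosome 10, 127660918 to 127668568, minus strand) had the narrowest range of the 8 genes. It had 26.9, 25.2, 44.9, 44.6, 44.7 and 30.1 CPM in libraries 18 to 23. Libraries 20 and 22 lay above libraries 18 and 19 with no overlap of intervals, and libraries 18 and 19 overlapped (ratio of highest to lowest 1.78, interval 1.49 to 2.12, adjusted p = 1.19e-14, chi-square test). Nab2 overlaps Nemp1, Stat6 and Gm16229 on the opposite strand, sharing 151, 40 and 1050 exonic bases in GENCODE M21. Whether counting used strand is not stated, so reads there cannot be told apart. Stat6 had up to 1542 exon reads in a library, Nemp1 up to 152 and Gm16229 up to 7.

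Ier2 (ENSMUSG00000053560, chromosome 8, 84661331 to 84662852, minus strand), a gene of 1 exon, had 113, 94.2, 185, 130, 178 and 209 CPM in libraries 18 to 23. The highest level was 2.22 times the lowest (interval 1.97 to 2.49, adjusted p = 6.38e-85, chi-square test). Library 21, where Nr4a1 and Nr4a3 were highest, lay here under libraries 20, 22 and 23.

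Reads on introns gave a second view of the NR4A genes. Such reads, recovered from the deposited intron share and the exon count, made up 60.6% of all Nr4a1 reads, 84.5% of Nr4a2 reads and 71.3% of Nr4a3 reads when the libraries were pooled. They made up 17.2% for Egr2, 14.98% for Egr3, 9.67% for Nab2 and 2.28% for Egr1, and over all genes they were 45.5% to 50.6% of reads in each library. The genes differ in intron and exon length, and the shares were not corrected for it, so they compare libraries for 1 gene and not genes with each other. Ier2 had 42 intron reads in all although it has no intron in this annotation, a level that shows how far such reads reach in a gene without introns.

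Nr4a1 intron reads, scaled to 1000000 intron reads, numbered 58.8, 22.95, 50.2, 61.4, 45.6 and 84.7 in libraries 18 to 23. Library 19 was again lowest, but the span was 3.69-fold, or 1.86-fold without that library, against 17.2-fold for exon reads, or 3.07-fold without it. The intron share of Nr4a1 reads was accordingly 81.8% in library 19 (Wilson interval 76.6% to 86.0%) and 68.7% in library 18 (65.1% to 72.1%). It was 53.0%, 43.2%, 49.4% and 59.4% in libraries 20 to 23. The share differed between libraries beyond counting error (adjusted p = 6.78e-22, chi-square test of exon against intron reads), as it did for 70.4% of the 8714 genes tested. The intron share over all genes, 48.8% in library 18 and 47.6% in library 19, did not stand apart in these libraries.

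Nr4a3 intron reads were 157, 102, 395, 281, 321 and 200 per 1000000 in libraries 18 to 23, highest in library 20 and lowest in library 19 (3.87-fold, or 2.52-fold without library 19). Its intron share was lowest in library 19 (62.8%), where that of Nr4a1 was highest, and highest in library 20 (79.1%) (adjusted p = 6.02e-32, chi-square test). Nr4a2 intron reads were 29.7, 9.35, 40.9, 42.2, 50.05 and 24.98 per 1000000, in nearly the same order as its exon reads and, with 840 reads, on a firmer count. They spanned 5.35-fold, or 2.004-fold without library 19. For the intron share of Nr4a2, between 82.5% and 89.2%, no difference was detected (adjusted p = 0.450, chi-square test). Nab2, the other member tested for intron share, was not called either (adjusted p = 0.0597, chi-square test). In all, 2 of 4 members tested varied in intron share, beside 70.4% of the 8714 genes tested. Intron reads of all 3 NR4A genes varied between libraries, beside 86.2% of the 8607 genes tested for this, with adjusted p = 2.08e-39 for Nr4a1 by the chi-square test. The other 5 genes had fewer than 200 intron reads. At a minimum of 50, 4 of 5 members tested varied, beside 83.3% of 12157 genes.

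**Figure D3:**
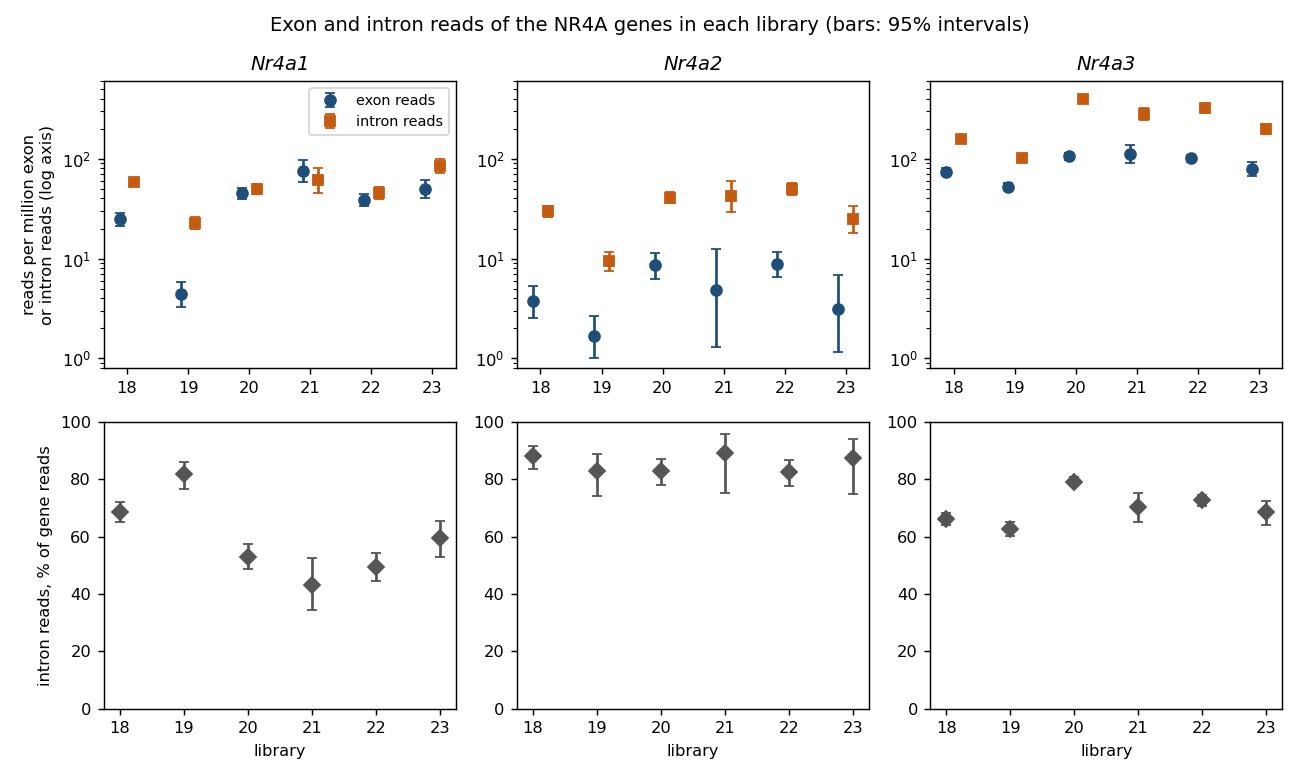
Upper row, exon reads (blue circles) and intron reads (orange squares) of the NR4A genes per 1000000 exon or intron reads (log axis) in libraries 18 to 23, with 95% Poisson intervals. Lower row, intron reads as a percentage of the gene's reads with 95% Wilson intervals. Nr4a1 exon reads dip more than its intron reads in library 19, and its intron share there is 81.8%.

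To compare patterns, log2 CPM over the 6 libraries was centred at its median for each gene, and the root mean square distance between genes was taken. Among the 8 genes, Nr4a3 and Nab2 were closest (0.14 log2 units), then Nr4a3 and Egr1 (0.20) and Egr1 and Nab2 (0.24). Nr4a1 lay 0.93 from Egr1, its nearest in the set, and Egr2 and Egr3 lay 1.41 apart. Of 6314 genes with a mean of at least 20 CPM, the nearest to Nr4a1 were Klf2, a transcription factor gene of quiescence and trafficking (0.33), and the AP-1 genes Fos (0.41) and Fosb (0.43). Fosb had 209 CPM in library 18, 41.9 in library 19 and 419 to 554 in the other 4 libraries. The nearest to Egr1 were Junb (0.16), the insulin signalling adaptor gene Irs2 (0.17) and the antiproliferative gene Btg2 (0.19). Nr4a2 was nearest to Ifng (0.25), Dusp1 (0.39) and Ppp1r15a (0.40), and Egr3 to the NK receptor genes Klrk1 (0.35) and Klrc1 (0.35) and to Tmem186 (0.51). Nr4a3 was nearest to Spty2d1, Tceal3 and Arhgap5, and Nab2 to Sgms1, Spty2d1 and Ccdc117, all within 0.12. Ier2 was nearest to Clybl, the heat shock gene Hsp90aa1 and Tagap, all within 0.15, and Egr2 to the immunoglobulin segment Ighv1-64 (0.23), Gem (0.29) and Bcl10 (0.39). These distances rest on 6 libraries that also differ in depth, and for Egr2, Egr3 and Nr4a2 on fewer than 200 reads.

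Of 18 listed regulators of EGR and NR4A genes, 17 were tested and 13 varied, beside 71.6% of all tested genes. Their median log2 range was 0.52 against 0.65 for all tested genes. Mef2c had the widest ratio of highest to lowest among the 13, 4.91, above those of Nr4a3, Egr1, Ier2 and Nab2. Ncor1, a corepressor gene, had a median of 827 CPM, Elk4, which encodes a partner of serum response factor, 269 CPM and Creb1, whose product binds cyclic AMP response elements, 172 CPM. For Srf (45.6 to 55.5 CPM) no variation was detected (adjusted p = 0.276, chi-square test). The EGR corepressor gene Nab1 was lowest in library 19 (72.8 CPM) and highest in library 23 (124 CPM). Mef2c, of a family that binds the Nr4a1 promoter, had the same extremes (5.37 and 26.4 CPM), and B cells also express it. Egr4 had 5 reads in all, in library 20. Of 10 ERK pathway genes all were tested and 7 varied (4 without library 20), with a median log2 range of 0.57. Rasgrp1, which couples the receptor to Ras, had its highest level, 727 CPM, in library 19 (median 539 CPM).

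The next counts are for genes that EGR or NR4A factors are known to act on. Of all tested genes, 71.6% varied between libraries, and the median log2 range was 0.65. Of 10 listed EGR targets 7 were tested and all 7 varied, with a median log2 range of 0.46, and 2 of the 7 were lowest in library 19, as were 14.0% of all tested genes. Il2rb, an interleukin receptor chain, was highest there, at 1376 CPM against a median of 885 CPM. Dgka, a diacylglycerol kinase gene, had a median of 322 CPM and Zbtb16 268 CPM, and both were lowest in library 19 (274 and 245 CPM). Il2rb and Zbtb16 are also among the iNKT and T cell markers. Of 9 NR4A-linked genes 6 were tested and all 6 varied (median log2 range 0.69), and 1 was lowest in library 19. Their most abundant members were Ikzf2 (median 262 CPM), Runx1 (230 CPM) and the exhaustion-linked factor gene Tox (42.0 CPM), and Pdcd1, an inhibitory receptor gene, was highest in library 19 at 49.1 CPM.

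Of 12 other genes induced through the antigen receptor, 10 were tested and all 10 varied (median log2 range 0.82), beside 71.6% of all tested genes. Of the 10, 2 were lowest in library 19, where 14.0% of all tested genes were. Il2ra, the high-affinity interleukin 2 receptor chain gene, had a median of 244 CPM, the costimulatory receptor gene Icos 207 CPM and Nfatc1 200 CPM. Cd69, an early activation marker, had 130 and 131 CPM in libraries 18 and 19 and 188 to 214 CPM in the other 4, which divides the libraries as Egr1 did. Il2ra, Icos and Nfatc1 did not divide them so. Icos was highest in library 18 (257 CPM) and Nfatc1 in library 19 (230 CPM). Il2ra was lowest in library 18 (165 CPM), but its 256 CPM in library 19 exceeded its levels in libraries 20, 21 and 22. Of 38 other early-response genes 35 were tested and all 35 varied (median log2 range 1.46), beside 71.6% of all tested genes. Of the 35, 25 were lowest in library 19, against 14.0% of all tested genes. Their most abundant members were the RNA-binding protein gene Zfp36l2 (median 1331 CPM), the NF-kappaB inhibitor gene Tnfaip3 (1246 CPM) and Btg1 (929 CPM). Zfp36l2 was highest in library 19 (1781 CPM), and so was Dusp2, a gene of a MAP kinase phosphatase, at 114 CPM against 40.1 to 62.8 CPM elsewhere.

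Some other gene groups shared part of the order of libraries seen for Nr4a1, which was lowest in library 19 and highest in library 21. All 10 heat shock genes varied, beside 71.6% of all tested genes. All 10 were lowest in library 19, beside 14.0% of all tested genes. Their sums were 5210, 4043, 8258, 6590, 7742 and 9368 CPM in libraries 18 to 23. The 13 mitochondrially encoded protein genes had the same extremes as Nr4a1, their sum being lowest in library 19 (32011 CPM) and highest in library 21 (54378 CPM). Of the 13 genes, 12 were lowest in library 19. The B cell and erythroid sums were lowest in library 18 and highest in library 23. The B cell sums were 1072, 2029, 4135, 4084, 4838 and 5343 CPM, and those of 8 erythroid markers 4.58, 5.56, 105, 73.6, 129 and 314 CPM. B cells can express Egr1 and Nr4a1 too. Of the 16 B cell markers, 9 were tested and all 9 varied, beside 71.6% of all tested genes. No B cell marker was at 0 in any library. Without Igkc and Ighm, left out after their values were seen, the other 14 summed to 128, 69.4, 143, 233, 161 and 141 CPM, lowest in library 19 and highest in library 21. The part of these transcripts in the levels of the 8 genes was not tested. The iNKT and T cell sum was highest in library 19 (5992 CPM), and library 18 (5285 CPM) was close to library 22 (5241 CPM). Of its 12 markers, only Cxcr6 (1439 CPM) and Il2rb (1376 CPM) were highest in library 19. Cd3e, Cd3g, Cd3d and Trac were highest in library 22, and Zbtb16 was lowest in library 19.

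**Figure D4:**
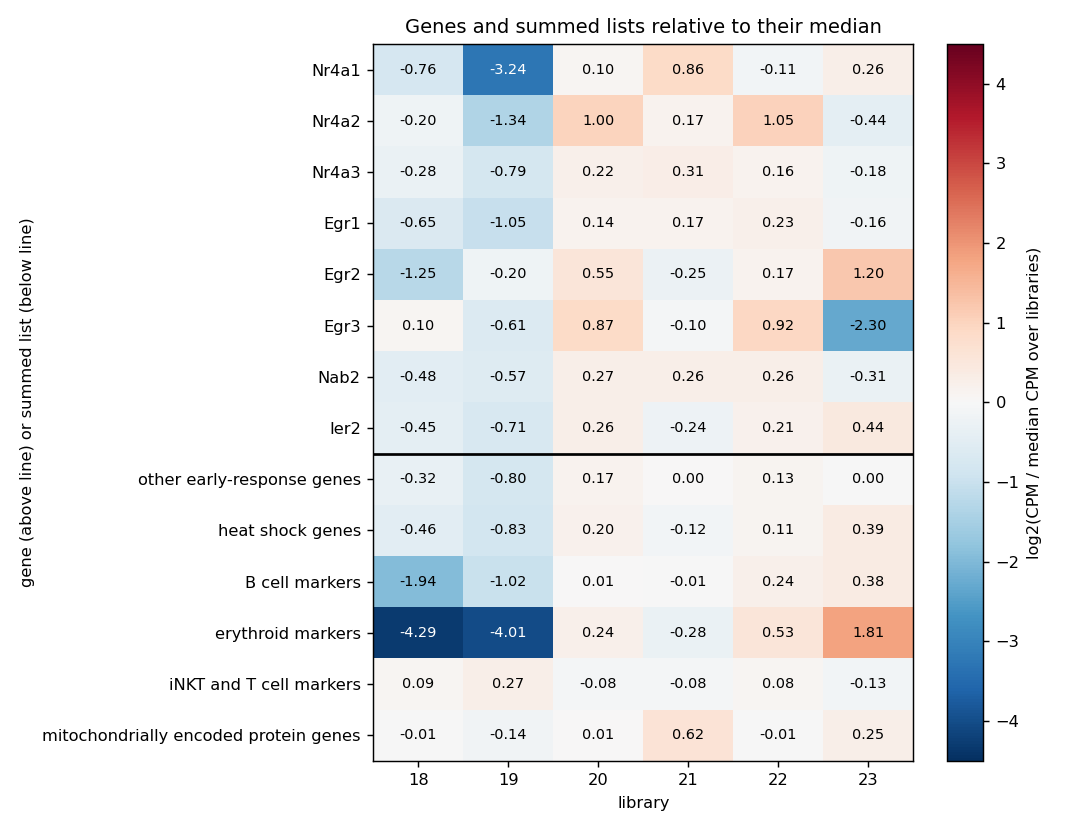
The log2 ratio of CPM to its median over the 6 libraries, for the 8 genes (above the line) and for summed lists of other genes (below it), in libraries 18 to 23. Nr4a1 in library 19 stands at -3.24, and the sums of other early-response genes (-0.80) and of heat shock genes (-0.83) dip less. Single genes within these sums, not drawn here, fell as far as Nr4a1 did or further. Fosb fell about as far, with 41.9 CPM in library 19 against a median of 420 CPM. Hspa1b fell further, with 4.24 against 367 CPM. The erythroid sum is low in both library 18 (-4.29) and library 19 (-4.01).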

How the data were processed

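Per the labels' protocols, RNA of sorted splenic iNKT cells was purified (NucleoSpin RNA XS Micro) and made into libraries (QIAseq UPXome). The submitters' processing notes name the builds GRCm38 and mm10. Aligner, counter, annotation release and use of strand: not given in the sources used here. The deposited counts are whole exon reads per gene and library, not normalized. The deposited fraction of intron reads gave intron reads wherever a gene had 1 or more exon reads. RPKM is as deposited, scaled by the authors. Exon length was taken from the table, and its other 14 numeric columns were not used. The deposited table, per the file headers, names libraries by a number and index sequences that match no label, so the genotype test by edgeR's quasi-likelihood method was not run.

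CPM used TMM factors (edgeR 4.0.16, R 4.3.3) from 9510 genes kept by filterByExpr. Chi-square tests (5 degrees of freedom, Benjamini-Hochberg threshold 0.05) compared counts with effective library sizes for genes with at least 200 reads, intron reads with each library's intron total (at least 200), and exon with intron reads (at least 100 of each). The last was added after values were seen. The tests were checked on simulated data. Poisson and Wilson intervals are at 95%. Every pair of libraries differed by more than counting error (lowest chi-square per gene 9.28). Log2 ranges and distances used a prior count of 2.

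Named genes are all 8 members, Gpx4, the 3 nearest genes to each member by pattern (predicted genes, pseudogenes and Rik genes left out), and the 3 genes of each pathway list with the highest median. Some genes of these lists are not reported here. Others named (Fosb as detail, Srf, Nab1, Mef2c, Egr4, Pdcd1, Cd69 and Dusp2 among them) were chosen after their values were seen. Members and lists were chosen with earlier results of these data known. All 185 listed symbols were in the table. Markers of platelets summed to 3.69 to 23.2 CPM. Alternatives were DESeq2 1.42.0 size factors, totals without composition factors, other read minimums, RPKM, and leaving out each library.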

Additional observations from a re-analysis of the deposited data

How the results depend on the processing

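The count of members that varied, 5 of 5 tested, was 5 with DESeq2 size factors, with plain totals and without each library in turn, 4 of 4 tested at a minimum of 1000 reads, and 8 of 8 with no minimum. Intron reads of 3 NR4A genes varied under every setting run, and 4 of 5 members tested did at a minimum of 50 intron reads, where Egr1 was not called. Of the list counts, ERK pathway genes were at 4 without library 20 and at 7 with all libraries, and the cause was not tested. Leaving out each library gave 4 to 7 for that list, 11 to 14 for EGR and NR4A regulators, 5 to 7 for EGR targets, 4 to 6 for NR4A-linked genes, 8 to 10 for receptor-induced genes and 31 to 35 for early-response genes. Each of these other counts stayed within 1.5 times of its value with all libraries under every setting run. The highest-over-lowest ratio moved by over 1.5 times for Nr4a1 (to 3.07 without library 19, 11.3 without 21), Nr4a2 (to 2.81 without 19), Egr2 (to 2.72 without 18, 3.46 without 23) and Egr3 (to 2.88 without 23), and for intron reads of Nr4a1 (1.86), Nr4a2 (2.004) and Nr4a3 (2.52) without 19. No paired analysis was possible because the library names carry no replicate numbers, and no genotype result could be recomputed. Library 21, with the fewest reads, limits Nr4a2, Egr2 and Egr3, each at 4 exon reads there.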
